A study of Homo sapiens with 4 samples.

Results

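Human cells carry HOX genes in 4 clusters, and a small set of microRNAs (miRNAs) is transcribed from within them. The miRNAs described here were the guide strands of this set that the small RNA libraries listed in quantity, namely hsa-miR-10a-5p, hsa-miR-10b-5p, hsa-miR-196a-5p, hsa-miR-196b-5p and hsa-miR-615-3p, with the human prefix left out below. They were chosen by name, for the position of their genes in the HOX clusters, and they were 5 of the 1474 mature miRNAs with at least 1 count in any library. Small RNA was sequenced from 4 lines with 1 library each. HCT116 and RKO are established human colorectal cancer lines, used here as untreated parental cells. HCT116-R and RKO-R are acquired radioresistant lines, raised from HCT116 and RKO by repeated irradiation in fractions of 4 Gy up to 40 Gy in total, and kept for at least 3 weeks without irradiation before use. Each radioresistant line is 1 derivation from its parent, so the change with resistance and the history of that derivation cannot be told apart. The comparisons asked how the HOX cluster miRNAs differed between the HCT116 and RKO lineages, and whether they changed with radioresistance.

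HOX genes encode transcription factors that give cells their position along the body axis, and a cell keeps its own combination of active HOX clusters long after development has ended. The miRNAs inside the clusters are often transcribed together with the neighbouring HOX genes, so their levels are commonly read as a trace of positional identity. Many of their known targets are HOX mRNAs themselves, of which HOXB8 as a target of miR-196 is the textbook case. The mature strand directs an Argonaute protein to mRNAs through its seed, the bases at positions 2 to 8.

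The mature sequences of 4 of the 5 miRNAs were read from RefSeq on GRCh38.p14, and are shown with the seed in capitals because the seed sets the families apart.
miR-10a-5p: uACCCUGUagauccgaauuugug
miR-196a-5p: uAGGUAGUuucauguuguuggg
miR-196b-5p: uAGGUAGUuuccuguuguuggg
miR-615-3p: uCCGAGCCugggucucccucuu
miR-196a-5p and miR-196b-5p shared their seed and 21 of 22 bases, and differed by the substitution A12C, counted from 1 at the 5′ end with the base of miR-196a-5p first. miR-10b-5p is the paralog of miR-10a-5p, encoded in another cluster and close to it in sequence. How the authors' counting divided reads between such near-identical miRNAs is not given in the sources used here, so the levels within the miR-10 pair and within the miR-196 pair are uncertain to that extent.

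The 5 miRNAs came from 6 hairpins in the 4 clusters (GENCODE 29 and RefSeq, both GRCh38, which gave the same coordinates). MIR196B, the only hairpin in HOXA, lies on the minus strand at chr7:27169480-27169563, in a non-coding part of an exon of HOXA9. MIR10A lies on the minus strand in HOXB at chr17:48579838-48579947, in an intron of HOXB3 and in a non-coding part of an annotated HOXB4 exon. MIR10B holds the matching place in HOXD, on the plus strand at chr2:176150303-176150412, in an intron of HOXD3 and 809 bases before HOXD4. miR-615-3p is cut from MIR615 on the plus strand of HOXC at chr12:54033950-54034045, in introns of HOXC4 and HOXC5. No annotated hairpin lay antisense to any of the 6, so none shared its position with another miRNA.

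miR-196a-5p is the only one of the 5 that the genome encodes at more than 1 place. MIR196A1 lies on the minus strand of HOXB at chr17:48632490-48632559, in an intron of HOXB7, and MIR196A2 on the plus strand of HOXC at chr12:53991738-53991847, between HOXC10 and HOXC9 and in an intron of a long HOXC6 transcript. Both hairpins are shown with the miR-196a-5p strand in capitals, because that strand is identical in both and its counts could not be assigned to HOXB or HOXC.
MIR196A1: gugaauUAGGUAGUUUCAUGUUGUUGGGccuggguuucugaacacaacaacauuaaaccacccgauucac
MIR196A2: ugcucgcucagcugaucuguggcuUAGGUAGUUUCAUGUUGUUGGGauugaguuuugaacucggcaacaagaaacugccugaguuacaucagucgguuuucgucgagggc
The opposite arms differ between the hairpins, and are counted as miR-196a-1-3p and miR-196a-3p. These arms were too rare to tell the loci apart, with 5, 4, 3 and 1 counts of miR-196a-1-3p and 0, 1, 3 and 0 counts of miR-196a-3p in HCT116, HCT116-R, RKO and RKO-R. The clusters held 2 further miRNAs of the count tables, miR-3185 beside HOXB13 and miR-7704 over HOXD1. miR-3185 had 1 count in HCT116-R and 0 elsewhere, and miR-7704 had 2, 8, 0 and 3 counts in the 4 libraries, at or near the floor of 3 counts below which no level is read.

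**Figure D1:**
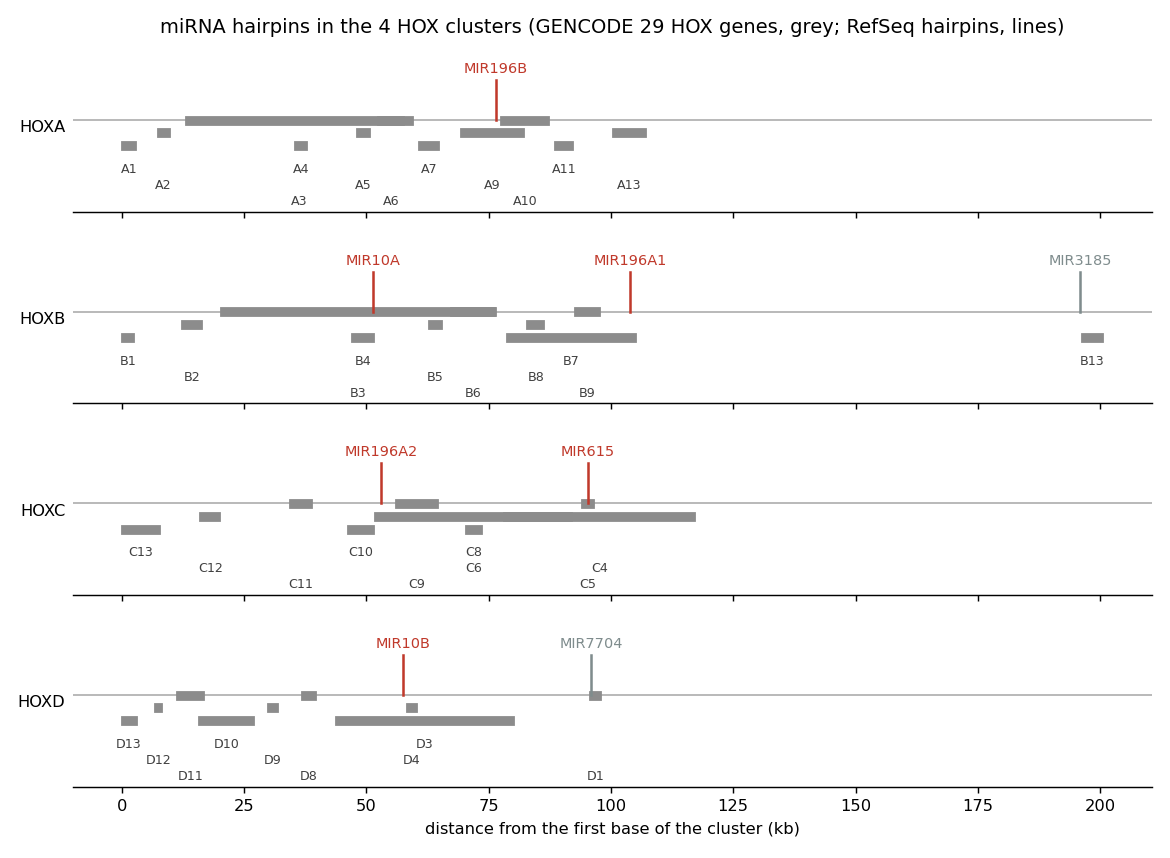
Map of the 4 HOX clusters. The x axis is the distance in kb from the first annotated base of each cluster, grey bars are HOX genes of GENCODE 29, red lines are the 6 hairpins that give the 5 miRNAs, and grey lines are the other 2 hairpins. MIR10A and MIR10B stand beside the paralogs HOXB4 and HOXD4, and the miR-196 hairpins stand beside HOXA9, HOXB9 and HOXC9.

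The library totals were close to each other, from 6818497 counts in HCT116-R to 7140460 in RKO, so 3 counts corresponded to 0.42 to 0.44 CPM (counts per 1000000 counts of the library). All 5 miRNAs lay far above this floor in every library. Markers of the intestinal epithelium were present in all 4 libraries, with 7 of 8 above the floor in each, and summed to 58544 to 62978 CPM in the HCT116 lineage and to 10096 to 11703 CPM in the RKO lineage. Most of this difference was miR-200c-3p, at 42717, 42008, 90.9 and 206 CPM in HCT116, HCT116-R, RKO and RKO-R. miR-141-3p was also far lower in the RKO lineage, at 972, 1220, 2.38 and 5.93 CPM in the same order. miR-429 was lower there as well, at 15883, 12718, 7251 and 8836 CPM. Others lay closer, such as miR-200a-3p at 2113, 1665, 1840 and 1586 CPM and miR-192-5p at 226, 202, 220 and 323 CPM. miR-9-5p and miR-124-3p, chosen as neural markers, summed to 686 to 765 CPM in the HCT116 lineage and 2.38 to 6.08 CPM in the RKO lineage. Nearly all of this was miR-9-5p, since miR-124-3p had 0, 4, 0 and 1 counts in HCT116, HCT116-R, RKO and RKO-R. The markers of stroma and vessel summed to 3611 to 8339 CPM, most of it miR-126-3p at 3452 to 8331 CPM, which was higher in the RKO lineage. The other markers of that list were all lower in RKO than in HCT116, such as miR-143-3p at 7.14 against 254 CPM and miR-145-5p at 0 against 45 CPM. Markers of blood cells summed to 5.64 to 26.7 CPM, of liver to 2.6 to 82.1 CPM, and of muscle to 0.84 to 1.76 CPM, with 0 of 3 muscle markers above the floor in RKO and RKO-R. The part of these differences in the HOX miRNA levels was not tested.

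Together the 5 miRNAs made up 1.84% of all counts in the HCT116 library and 2.18% in that of HCT116-R, but 1.05% in RKO and 1.23% in RKO-R. The higher total of the HCT116 lineage came with miR-10a-5p, which held 63.2% of the counts of the 5 in HCT116 and 71% in HCT116-R, against 28.2% in RKO and 31.3% in RKO-R. In RKO the counts were spread more evenly, with 28.1% in miR-196a-5p, 24.3% in miR-196b-5p and 17.7% in miR-10b-5p. miR-615-3p was the least abundant of the 5 in every library, at 0.367% to 1.58% of their counts.

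**Figure D2:**
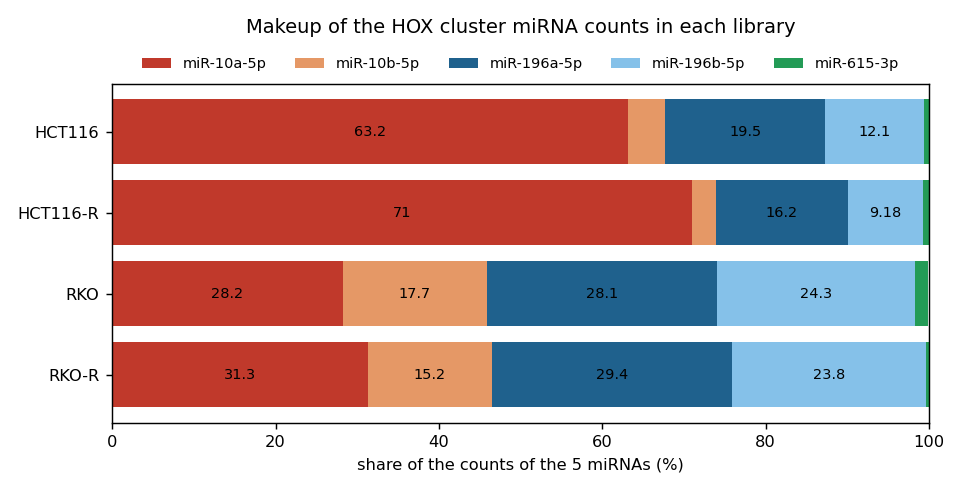
Makeup of the HOX cluster miRNA counts. The x axis is the share in percent of the summed counts of the 5 miRNAs and each bar is 1 library. miR-10a-5p fills 63.2% and 71% of the bars of the HCT116 lineage and 28.2% and 31.3% of those of the RKO lineage.

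miR-10a-5p, the HOXB member of the miR-10 pair, was measured at 11645 CPM in HCT116 (95% Wilson interval 11565 to 11726), 15479 CPM in HCT116-R (15386 to 15572), 2961 CPM in RKO (2921 to 3001) and 3861 CPM in RKO-R (3815 to 3908). Both libraries of the HCT116 lineage stood above both of the RKO lineage, and it ranked 23rd and 15th among all miRNAs in the former and 39th and 38th in the latter. miR-10b-5p, the HOXD member, was measured at 839 CPM in HCT116 (818 to 861), 637 CPM in HCT116-R (619 to 656), 1861 CPM in RKO (1829 to 1892) and 1872 CPM in RKO-R (1840 to 1904). Its order was the opposite one, with both RKO libraries above both HCT116 libraries, and the intervals of RKO and RKO-R overlapped. The intervals cover counting error only, since no line had a replicate.

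Accordingly miR-10a-5p made up 93.3% of the miR-10 counts in HCT116 (95% Wilson interval 93.1 to 93.4) and 96% in HCT116-R (95.9 to 96.2), but 61.4% in RKO (60.9 to 61.9) and 67.4% in RKO-R (66.9 to 67.8). In HCT116 and HCT116-R there were 13.9 and 24.3 counts of the HOXB form for each count of the HOXD form, whereas RKO had 1.59 and RKO-R had 2.06. The HOXB form was thus the more abundant one in each of the 4 libraries. The pair as a whole summed to 12484 and 16116 CPM in the HCT116 lineage and 4821 and 5733 CPM in the RKO lineage.

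The miR-196 strands lay closer together across the libraries. miR-196a-5p, from HOXB and HOXC, was measured at 3600 CPM in HCT116 (3556 to 3646), 3524 CPM in HCT116-R (3479 to 3568), 2950 CPM in RKO (2910 to 2990) and 3626 CPM in RKO-R (3581 to 3671). It ranked 39th or 40th in each library, and the interval of HCT116 overlapped those of HCT116-R and RKO-R. miR-196b-5p, from HOXA, was measured at 2238 CPM in HCT116 (2203 to 2274), 2003 CPM in HCT116-R (1970 to 2037), 2553 CPM in RKO (2517 to 2591) and 2941 CPM in RKO-R (2901 to 2981). Both RKO libraries thus stood above both HCT116 libraries, in the order seen for miR-10b-5p but with smaller differences, and the counting intervals did not overlap. miR-196a-5p held 61.7% (HCT116) and 63.8% (HCT116-R) of the pair's counts in one lineage, and 53.6% (RKO) and 55.2% (RKO-R) in the other, and the pair summed to between 5503 CPM in RKO and 6566 CPM in RKO-R.

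miR-615-3p, from HOXC, was measured at 113 CPM in HCT116 (106 to 122), 167 CPM in HCT116-R (157 to 177), 166 CPM in RKO (157 to 176) and 45.3 CPM in RKO-R (40.5 to 50.6). RKO-R was the low library, and the intervals of HCT116-R and RKO overlapped almost fully. Within a library, the levels ran from miR-10a-5p through miR-196a-5p, miR-196b-5p and miR-10b-5p down to miR-615-3p, and this order held in all 4. In RKO the neighbours miR-10a-5p and miR-196a-5p, at 2961 and 2950 CPM, did not differ beyond their counting intervals.

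**Figure D3:**
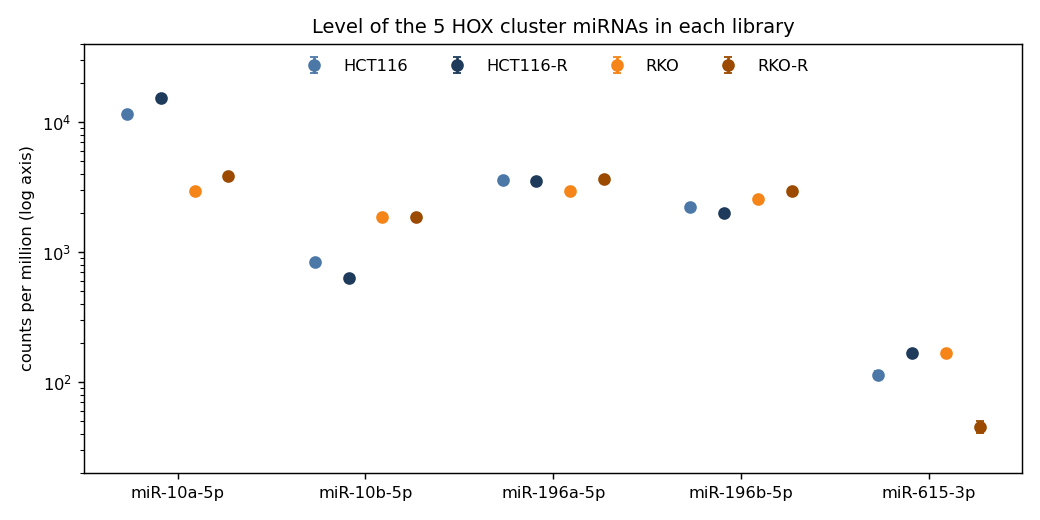
Level of the 5 HOX cluster miRNAs in each library. The y axis is the level in CPM on a log axis, each point is 1 library, and the bars are 95% Wilson intervals, which are mostly smaller than the points. miR-10a-5p is higher and miR-10b-5p lower in both HCT116 libraries than in both RKO libraries, the miR-196 points lie between 2003 and 3626 CPM, and miR-615-3p is lowest in RKO-R at 45.3 CPM.

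Between the parental lines, miR-10a-5p was 4.29-fold lower in RKO than in HCT116, and it was the only one of the 5 that passed the test. The log2 fold change was −2.10 (95% interval −2.90 to −1.30) with an adjusted p of 8.9e-06 (edgeR exact test with Benjamini-Hochberg adjustment over 1289 miRNAs). The test took a biological coefficient of variation (BCV) of 0.2, as the methods of the study name it, so p-values and intervals compare these libraries under an assumed spread. Of all miRNAs, 25.5% were called in this comparison, so 1 call among 5 was close to the background. miR-10b-5p was measured 2.03-fold higher in RKO, at a log2 fold change of 1.02 (0.22 to 1.82), which missed the threshold with an adjusted p of 0.0526 in the edgeR exact test. Its call depended on the settings, and it passed without TMM (trimmed mean of M-values) scaling, with DESeq2 size factors, with either filter on low counts and in the likelihood ratio test, with adjusted p-values of 0.0254 to 0.0424. The log2 fold changes of miR-196a-5p, miR-196b-5p and miR-615-3p were −0.41, 0.06 and 0.42, and none of them passed.

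Between the radioresistant lines, both members of the miR-10 pair passed the test, in opposite directions. miR-10a-5p was 3.18-fold lower in RKO-R than in HCT116-R, at a log2 fold change of −1.67 (−2.47 to −0.87) and an adjusted p of 6.2e-04 in the edgeR exact test. miR-10b-5p was 3.7-fold higher in RKO-R, at 1.89 (1.09 to 2.69) and an adjusted p of 8.8e-05 in the same edgeR test. miR-615-3p was 2.92-fold lower in RKO-R, at −1.55 (−2.37 to −0.73) and an adjusted p of 0.0022 in the edgeR test. Thus 3 of the 5 were called, 1 higher and 2 lower, where 23.2% of 1333 miRNAs were called. The log2 fold changes of miR-196a-5p and miR-196b-5p were 0.38 and 0.89, with adjusted p-values of 0.702 and 0.112 in the edgeR exact test, and did not pass. Without TMM the values of miR-10a-5p, miR-10b-5p and miR-615-3p were −2.00, 1.55 and −1.88, while the median of 652 miRNAs with at least 10 counts moved from −0.33 to −0.66. The members' calls in both line comparisons were lost at a BCV of 0.4.

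The median absolute log2 fold change of the 5 was 0.42 between the parental lines and 1.55 between the radioresistant lines, against 2.10 over all miRNAs tested in each. Against the miRNAs that reached 1000 counts in either library of a pair, whose medians were 0.79 and 0.91, the value of the 5 was lower between the parental lines and higher between the radioresistant lines. Of these abundant miRNAs, 41.6% of 161 were called between the parental lines and 43.4% of 152 between the radioresistant lines. When the counts of the miR-10 pair were summed before the test, the pair was lower in RKO than in HCT116 at a log2 fold change of −1.49, with an adjusted p of 0.00216 in the edgeR exact test, and lower in RKO-R than in HCT116-R at −1.16, with an adjusted p of 0.0262. The summed miR-196 pair did not pass, at −0.21 and 0.58. In a fit of all 4 libraries with cell line and radioresistance as factors, whose spread comes from 1 residual degree of freedom, miR-10a-5p was 3.7-fold lower in the RKO lineage (adjusted p of 0.022, edgeR quasi-likelihood test). It was the only one of the 5 called in that fit, against 28.3% of 598 miRNAs, and miR-10b-5p had a log2 fold change of 1.45 with an adjusted p of 0.0651 in the quasi-likelihood test.

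Between HCT116-R and HCT116, none of the 5 HOX miRNAs passed the test, where 4.01% of 1322 miRNAs did, as did 5.37% of the 149 that reached 1000 counts. Their median absolute log2 fold change was 0.39, against 0.94 for all and 0.40 for the abundant ones. Their counts in HCT116 and HCT116-R were 79455 and 105541 for miR-10a-5p, 5726 and 4345 for miR-10b-5p, 24567 and 24026 for miR-196a-5p, 15273 and 13657 for miR-196b-5p, and 773 and 1137 for miR-615-3p. The log2 fold changes were 0.39, −0.42, −0.05, −0.18 and 0.54 in the same order. The 95% intervals of these differences reached down to −1.22 for miR-10b-5p and up to 1.35 for miR-615-3p. Under the assumed spread, changes up to these limits were thus not excluded for these miRNAs. At an unadjusted p under 0.05 the exact test of edgeR called 149 of the 1322 miRNAs, and again none of the 5.

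Between RKO-R and RKO, miR-615-3p fell 3.11-fold and was the only member called. RKO held 1184 counts and RKO-R 313, and the log2 fold change was −1.64 (SE 0.42, 95% interval −2.45 to −0.82) with an adjusted p of 0.00552 in the edgeR exact test. The share of all miRNAs called was 5.54% of 1155, and 13.5% of the 141 that reached 1000 counts. The median absolute log2 fold change was 0.53 for the 5, 1.02 for all and 0.38 for the abundant ones. The other members were measured slightly higher in RKO-R, with log2 fold changes of 0.62 for miR-10a-5p, 0.53 for miR-196a-5p, 0.44 for miR-196b-5p and 0.25 for miR-10b-5p, and none of these passed. Without TMM scaling these 4 values were 0.38, 0.30, 0.20 and 0.01 and that of miR-615-3p was −1.87, while the median of the 539 miRNAs with at least 10 counts moved from −0.03 to −0.27. At a BCV of 0.4 the call of miR-615-3p was lost, with an adjusted p of 0.886 in the edgeR test.

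The change of miR-615-3p with radioresistance differed between the lines. Its log2 fold change was −1.64 between RKO-R and RKO, and 0.54 between HCT116-R and HCT116. The difference of the changes, RKO-R against RKO minus HCT116-R against HCT116, was −2.20 on the log2 scale (SE 0.59, 95% interval −3.36 to −1.05), with an adjusted p of 0.00729 in the likelihood ratio test of edgeR at a BCV of 0.2. In this test 4.75% of 1474 miRNAs were called. For the other members the differences were 0.20 for miR-10a-5p (−0.03 without TMM), 0.63 for miR-10b-5p, 0.55 for miR-196a-5p and 0.59 for miR-196b-5p, and none passed. At a BCV of 0.4 the difference of miR-615-3p no longer passed. Over both lines, with the cell line as block, in a fit chosen after the data had been seen, radioresistance called 0 of the 5 HOX miRNAs and 0.669% of 598 miRNAs (edgeR quasi-likelihood test), with miR-615-3p at a log2 fold change of −0.58 and miR-10a-5p at 0.47.

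Some cell type markers also differed between radioresistant and parental libraries. Among them, miR-199a-3p and miR-214-3p moved in opposite directions in the RKO and HCT116 pairs. Between RKO-R and RKO, 5 of the 22 markers tested were called, where 5.54% of 1155 miRNAs were. The fall of miR-615-3p came beside a 12.4-fold rise of miR-143-3p, a miRNA of smooth muscle and fibroblasts, from 51 to 522 counts (adjusted p of 1.7e-11, edgeR exact test). The stromal miR-199a-3p and miR-214-3p were called higher as well, from 5 to 22 and from 0 to 14 counts, the epithelial miR-200c-3p was called higher, from 649 to 1426 counts, and the liver marker miR-122-5p lower, from 109 to 18 counts. Between HCT116-R and HCT116, 4 of 24 markers were called, where 4.01% of 1322 miRNAs were. All 4 were lower, namely miR-199a-3p (194 to 32 counts), miR-214-3p (39 to 1), the myeloid miR-223-3p (54 to 6) and miR-122-5p (560 to 62). The part of these changes in the values of the HOX miRNAs was not tested.

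**Figure D4:**
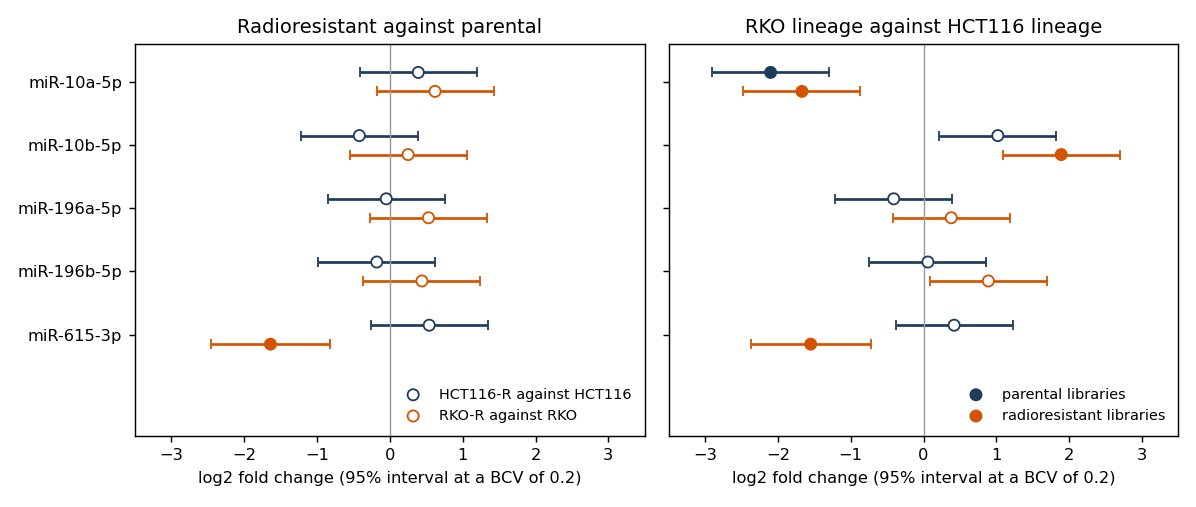
Differences of the 5 HOX cluster miRNAs between libraries. The x axes are log2 fold changes, bars are 95% intervals under a BCV of 0.2, and filled points passed the edgeR test at an adjusted p of 0.05. With radioresistance (left) miR-615-3p in RKO-R is the only filled point, at −1.64, and between the lineages (right) miR-10a-5p is filled in both comparisons, at −2.10 and −1.67.

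Arm use set miR-615 apart from the other hairpins. The named guide strands of MIR10A, MIR10B, the MIR196A hairpins and MIR196B held 99.86% or more of the counts of both arms in every library. miR-615-3p held 93.47% in HCT116 (95% Wilson interval 91.58 to 94.96), 96.11% in HCT116-R (94.85 to 97.07), 92.07% in RKO (90.46 to 93.42) and 87.92% in RKO-R (84.13 to 90.91). The lowest share was thus in the library with the lowest miR-615-3p, and its interval overlapped only that of RKO. The opposite strand miR-615-5p had 54, 46, 102 and 43 counts in HCT116, HCT116-R, RKO and RKO-R, and was 1.95-fold lower in RKO-R than in RKO without passing the test (adjusted p of 0.417, edgeR exact test). With both arms of MIR615 summed, the log2 fold change between RKO-R and RKO was −1.57, with an adjusted p of 0.00892 in the edgeR exact test. None of the 6 opposite arms was called in either radioresistant comparison, where 4.01% (HCT116 pair) and 5.54% (RKO pair) of all miRNAs were. None was called between the lines, where 25.5% (parental) and 23.2% (radioresistant) were. Most of these arms had few counts, so that only a large difference could be called, and miR-196b-3p, for example, had 7 to 20. Even a 9.51-fold difference of miR-10b-3p between RKO and HCT116, at 12 and 1 counts, missed the threshold (adjusted p of 0.0516, edgeR exact test).

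Base composition moved with the changes in the RKO pair. miR-615-3p was the member richest in G and C, at 63.6% of its bases, against 40.9% to 45.5% for miR-10a-5p, miR-196a-5p and miR-196b-5p. Among the 61 miRNAs with at least 60% G and C and 50 counts, the median log2 fold change between RKO-R and RKO was −0.33, against 0.08 for the other 230, and 9 of the 61 lay below miR-615-3p. Across these 291 miRNAs, which share the same 2 libraries, Spearman's rho of the fold change with the GC share was −0.32, and in the HCT116 pair it was −0.01 over 355 miRNAs. With the trend removed, in an alternative chosen after the data had been seen, miR-615-3p was at −1.42 between RKO-R and RKO. The trend was fitted on the same 2 libraries, and the part of base composition in the fall of miR-615-3p was not tested.

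**Figure D5:**
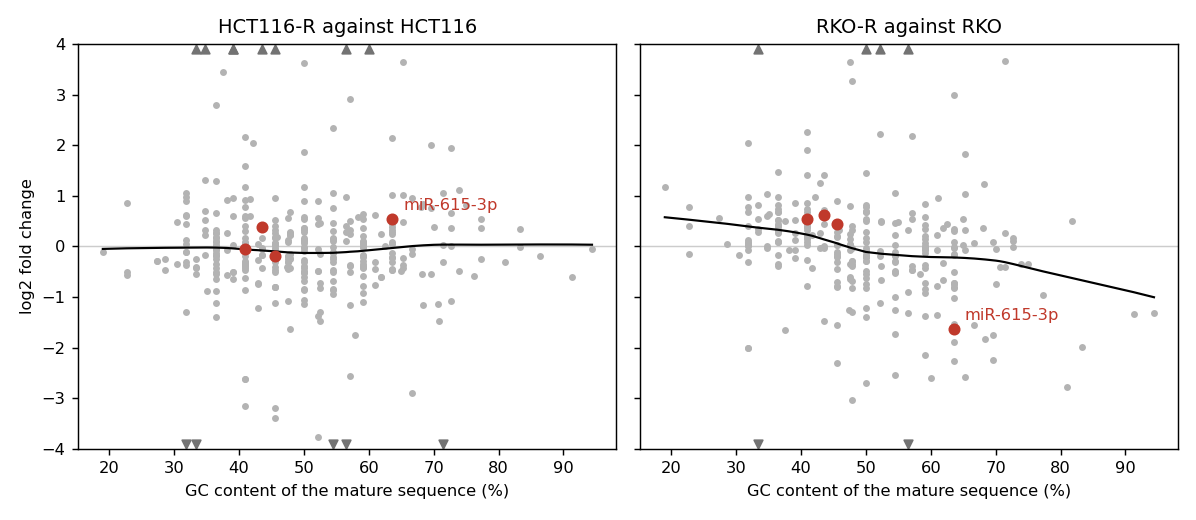
Log2 fold change with radioresistance against the GC content of the mature sequence in percent. Grey points are miRNAs with at least 50 counts and a sequence in RefSeq, triangles are those beyond 4 on the log2 scale, red points are the HOX cluster miRNAs with a sequence there, and the black line is a lowess trend. The trend falls with GC content in the RKO pair, where it is −0.22 at miR-615-3p and the miRNA itself is at −1.64, and stays near 0 in the HCT116 pair.

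The relatives of miR-10 outside the HOX clusters, the miR-99, miR-100 and miR-125 families, were set beside it because miR-100-5p aligned with miR-10a-5p in 19 of 22 bases after a shift by 1 base. The shift moves the seed, as shown by the capitals.
miR-10a-5p: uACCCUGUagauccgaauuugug
miR-100-5p: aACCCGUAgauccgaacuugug
miR-100-5p was far more abundant than the HOX form, at 106921, 75074, 17672 and 21769 CPM in HCT116, HCT116-R, RKO and RKO-R, and, like miR-10a-5p, it was lower in RKO than in HCT116 (6.6-fold, adjusted p of 7.1e-09, edgeR exact test). miR-125b-5p was 4.38-fold lower there (adjusted p of 7.2e-06, edgeR exact test). miR-99a-5p was 2.17-fold higher in RKO (adjusted p of 0.0353, edgeR exact test), so 3 of the 5 relatives were called between the parental lines, and 3 of 5 between the radioresistant lines, where 25.5% and 23.2% of all miRNAs were, and 41.6% and 43.4% of the abundant ones. None of the 5 was called in either radioresistant comparison.

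Among 340 other miRNAs that reached 100 counts in any library, the patterns most like each member over the 4 libraries were found by Euclidean distance of log2(CPM + 1) after centring. miR-29a-3p and miR-15b-5p followed miR-10b-5p most closely, at distances of 0.11 and 0.15 where the median distance was 1.87. miR-4659a-3p and miR-3157-5p came nearest to miR-10a-5p, at 0.24 and 0.33. For miR-196a-5p the nearest were let-7e-5p and miR-132-5p, at 0.06 and 0.14, and for miR-196b-5p they were miR-340-5p and miR-28-5p, at 0.12 and 0.15. Among the members themselves, miR-196a-5p and miR-196b-5p were 0.51 apart, and miR-10a-5p and miR-10b-5p were 3.40 apart. miR-615-3p was nearest to miR-30c-5p and miR-197-3p, at 0.42 and 0.68, and both, having been picked for this pattern, had their lowest counts in RKO-R, at 108 and 503 against 364 and 1595 in RKO.

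The HOX mRNAs were not measured in these libraries, and their 3′ UTRs are given only to show what the seeds could meet. The longest annotated 3′ UTR of each gene (GENCODE 29) was searched on the transcript strand. The letters ACTACCT, which pair with the miR-196 seed, were found in 9 of 39 HOX genes (23.1%) against 7.11% of 19102 genes. For the miR-10a-5p seed, ACAGGGT was found in 3 of 39 (7.69%) against 12.6%, and for miR-615-3p, GGCTCGG was found in 2 of 39 (5.13%) against 2.79%. The median 3′ UTR length was 866 bases for the HOX genes and 1085 bases for all genes. The stretch of HOX 3′ UTR most complementary to miR-196a-5p lay in HOXB8 at chr17:48612770-48612791 on the minus strand, where 21 bases could form Watson-Crick pairs and 1 a G:U pair with the 22 bases of the miRNA. It is shown 5′ to 3′ as DNA, with the bases facing the seed in capitals, and it does not hold ACTACCT because the G:U pair lies in the seed.
HOXB8 site: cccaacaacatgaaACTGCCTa
A match of letters is a description of the sequence, and repression was not measured.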

How the data were processed

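Small RNA of 4 lines was sequenced after size selection, with unique molecular identifiers and 1 library per line. The counts the authors deposited are per mature miRNA and not normalized. The submitters' processing notes name Bowtie2 and hg38. The release of the miRNA annotation, the counter, the use of strand and the collapsing of identifiers are not given in the sources used here. Groups were taken from the labels and doses from the methods. Counts were joined by miRNA name, a missing miRNA was given 0 counts, and CPM were taken from library totals of 6818497 to 7140460.

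The members and lists were chosen with earlier results of these data known. Named were the 5 members, their opposite arms, the miR-99, miR-100 and miR-125 relatives, other miRNAs of the HOX clusters, and the 2 nearest patterns per member. Pairs of libraries were compared with edgeR's exact test (edgeR 4.0.16 in R 4.3.3), TMM and a BCV of 0.2, with Benjamini-Hochberg adjustment over all miRNAs counted at least 1 time in either library and a threshold of 0.05. The difference between the lines was tested with edgeR's likelihood ratio test. All 4 libraries were fitted with edgeR's quasi-likelihood test after its filter on low counts. Standard errors follow from the counts and the assumed BCV, and Wilson intervals cover counting error only. The tests were tested on simulated data.

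Alternatives were a BCV of 0.1, 0.4 or the estimate from 4 libraries, no TMM, TMM over 4 libraries, DESeq2 (version 1.42.0) size factors and Wald test, filters of 10 counts or 1 CPM, the likelihood ratio test, an unadjusted p, a log2 fold change limit of 1, and summed families. The removal of a GC trend, the sum of both MIR615 arms and a radioresistance effect with the cell line as block were chosen after the data had been seen. Mature sequences matched 1313 of the 1474 miRNAs. Other steps used Python 3.11.15 (pandas 2.3.3, numpy 2.4.6, scipy 1.17.1) and figures matplotlib 3.10.9.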

Additional observations from a re-analysis of the deposited data

Results flagged for a closer look

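Of the 5 HOX cluster miRNAs, miR-615-3p was the only one that passed the test for a difference between the lines in the change with radioresistance. Of all 1474 miRNAs, 4.75% passed it. It was measured at 113 CPM in HCT116 and 167 CPM in HCT116-R, and at 166 CPM in RKO and 45.3 CPM in RKO-R, and the difference of the changes was −2.20 on the log2 scale with an adjusted p of 0.00729 in the edgeR likelihood ratio test at a BCV of 0.2. With 1 library per line the difference has no replicate check.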

How the results depend on the processing

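The assumed BCV decided most calls. At a BCV of 0.4 and at the estimate of 0.495 from the 4 libraries, 0 members were called in any of the pairwise comparisons. miR-615-3p stayed at −1.64 between RKO-R and RKO (adjusted p of 0.886 and 1, edgeR exact test), miR-10a-5p at −2.10 between RKO and HCT116 (0.102 and 0.315), and miR-10a-5p, miR-10b-5p and miR-615-3p at −1.67, 1.89 and −1.55 between RKO-R and HCT116-R (0.258, 0.176 and 0.33, then 0.577, 0.437 and 0.609). The difference between the lines for miR-615-3p, −2.20, also missed the threshold at 0.4 (adjusted p of 0.625, 0 members called). At a BCV of 0.1, miR-10a-5p passed between RKO-R and RKO at 0.62 (2 members called) and miR-196b-5p between RKO-R and HCT116-R at 0.89, which also passed by unadjusted p. Between RKO and HCT116, 2 members were called, with miR-10b-5p the second, at a BCV of 0.1, with either filter, with the likelihood ratio test and by unadjusted p (1.02), without TMM (1.15) and with DESeq2 size factors (1.08). Summing the miR-10 pair turned the value printed for miR-10b-5p to −1.49 and −1.16 between the lines, since the sum is mostly miR-10a-5p. Over all miRNAs, the calls between HCT116-R and HCT116 (53) and between RKO-R and RKO (64) were 154 and 148 at a BCV of 0.1, 24 and 9 at 0.4, 12 and 5 at the estimate, and 149 and 148 by unadjusted p. The 329 and 309 calls between the lines were 152 and 140 at 0.4 and 107 and 92 at the estimate, and the 70 calls of the difference between the lines were 178 at 0.1 and 14 at 0.4. Each radioresistant line pairs with its own parent, and no library could be left out of a pair. With the cell line as block, which uses this pairing, radioresistance called 0 members and 4 of 598 miRNAs in the edgeR quasi-likelihood test (10 at an unadjusted p under 0.05).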
